A study of Homo sapiens with 6 samples.

Results

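Human chromosome 19 carries an unusually dense collection of zinc finger genes, and 247 of them are described here, of 58825 genes listed in the count table. They are the protein-coding genes of chromosome 19 (GRCh38, GENCODE 29) whose symbol is ZNF followed by digits and an optional letter. The same form of symbol occurred in 510 protein-coding genes in all, and 263 of these lay on other chromosomes. RNA was sequenced from FaDu, an established line of squamous carcinoma cells from the hypopharynx. The shNSUN2 group held 3 libraries of cells carrying a short hairpin RNA against NSUN2, an RNA methyltransferase that places 5-methylcytosine on tRNAs and some mRNAs. The FaDu group held 3 libraries of the line, for which the labels give no hairpin. Both groups share the line itself, and a non-targeting hairpin is not among the groups analysed, so loss of NSUN2 and the presence and delivery of a hairpin cannot be told apart. The labels do not say how the hairpin was delivered or whether replicates were separate cultures.

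ZNF proteins bind DNA through a row of zinc fingers of the Cys-His type, each of which contacts a few bases, so that the order of the fingers sets the sequence that is read. Many also carry a KRAB domain, which recruits the scaffold protein TRIM28 and through it the histone methyltransferase SETDB1 and heterochromatin proteins, and many KRAB zinc finger proteins silence retrotransposons. The genes multiplied by tandem duplication, which left clusters of similar neighbours along chromosome 19.

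The members followed that layout. When neighbouring starts at most 500 kb apart were joined and at least 5 members were required, 233 of the 247 fell into 10 clusters, numbered here from the end of the short arm, and 14 were scattered. The largest were cluster 10 near the end of the long arm (ZNF264 to ZNF446, chromosome 19, 57191500 to 58481230) with 43 members, cluster 8 (ZNF175 to ZNF331, 51571298 to 53580269) with 39 and cluster 4 beside the centromere (ZNF101 to ZNF254, 19668796 to 24129961) with 37. Clusters 3, 6 and 7 held 25, 27 and 23 members, cluster 9 held 16 and cluster 2 held 13, while clusters 1 and 5 held 5 each. In the longest coding sequence of each gene, a finger motif (C, 2 to 4 residues, C, 12 residues, H, 3 to 5 residues, H) occurred 12 times at the median, between 0 times and the 36 of ZNF208. A KRAB box motif (EEW, 6 to 12 residues, LY, 2 residues, V) was found in 171 members, and a looser form of it in 197.

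Depth was 67421386, 58577723 and 72788971 estimated counts in the shNSUN2 libraries and 61196901, 53612358 and 72043755 in the FaDu libraries. NSUN2 (chromosome 5, 6599239 to 6633291) was at 50.4, 34.7 and 39.6 CPM (counts scaled to library totals adjusted by edgeR's TMM factors) in shNSUN2 and at 169, 173 and 156 CPM in FaDu, with a log2 fold change of -1.997 (edgeR quasi-likelihood, SE 0.16, adjusted p = 0.000526). By an exact two-sided permutation test the levels differed at p = 0.1, and groups of 3 cannot give a smaller p. The 8 squamous epithelial markers were all detected in every library, and their summed level was 1822 to 2207 CPM in shNSUN2 and 3509 to 3685 CPM in FaDu. Markers of 4 other cell types stayed low, with sums of 29.5 to 49.4 CPM in shNSUN2 and 13.8 to 17.5 CPM in FaDu for prostate. Plasma cell markers summed to 1.90 to 5.11 CPM in shNSUN2 and 0 to 0.267 CPM in FaDu, with all 5 at 0 in FaDu replicates 1 and 2. Smooth muscle markers summed to 11.9 to 25.9 CPM in shNSUN2 and 10.4 to 11.1 CPM in FaDu, and fibroblast markers to 6.24 to 11.5 CPM in shNSUN2 and 8.64 to 9.45 CPM in FaDu. Of the 6 prostate markers, 5 or 6 were above 0 in the shNSUN2 libraries and 3 or 4 in the FaDu libraries. The squamous, prostate, plasma cell and smooth muscle sums did not overlap between the groups, and their part in the results below was not tested.

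Replicate 3 of shNSUN2 stood apart from the other libraries in the level of these genes, so each main result is given with and without it. For each tested gene the log2 CPM of a library was set against the gene's mean over the 6 libraries. The median deviation of the tested members was 0.14, 0.07 and -0.28 in the 3 shNSUN2 libraries and 0.02, 0.07 and 0.08 in the 3 FaDu libraries, while that of all genes tested lay between 0.00 and 0.04 in every library. Replicate 3 therefore held the lowest member median and an ordinary median of all genes. Against the mean of replicates 1 and 2, its members stood at a median of -0.38 on the log2 scale and all genes tested at 0.07. The difference was below 0 for 134 of 197 members (68.0%), against 45.3% of all genes tested, and 90 members (45.7%) had their lowest CPM of all 6 libraries in it, against 24.4% of all genes.

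The same difference followed the base composition of the transcripts. Across 197 members its Spearman correlation with the GC content of the longest transcript was 0.44, and across 19033 tested genes it was 0.42, as a description over genes of the same libraries, which are not independent. With exonic length it was -0.18 for members and -0.25 for all genes. Tested members had a median GC content of 42.4% and a median exonic length of 5032 bases, against 48.6% and 4016 bases for all genes tested.

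**Figure D1:**
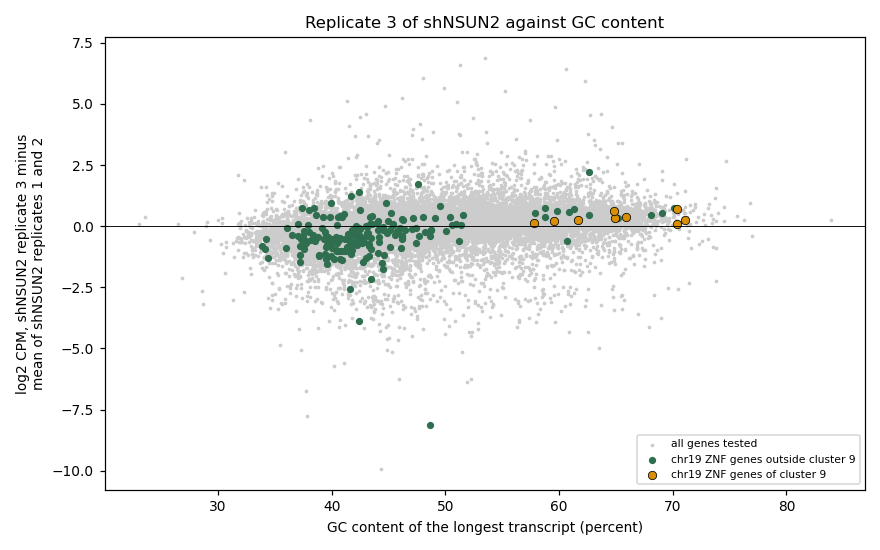
Each point is a tested gene, by the GC content of its longest transcript in percent and by its log2 CPM in replicate 3 of shNSUN2 minus the mean of replicates 1 and 2 (grey, all genes; green, chromosome 19 ZNF genes; orange, those of cluster 9). Most members lie at low GC and below 0 (median -0.38), while the 9 genes of cluster 9 lie at 57.8% GC or more and above 0.

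Where tested, the members were sparser transcripts at the median than all genes tested, though many of them passed the filter. A filter on low counts passed 197 of 247 (79.8%), and of the 50 that failed it 25 were at 0 in all 6 libraries. The same filter passed 231 of 263 ZNF genes on other chromosomes and 802 of 1225 other protein-coding genes of chromosome 19. Of all 58825 genes listed, 19081 passed. The median mean level of the tested members was 6.35 CPM, against 10.5 CPM for all genes tested, 16 lay under 1 CPM and 8 over 30 CPM. Per length, the median was 1.19 CPM per kb, and the highest levels were those of ZNF146 at 22.1, ZNF114 at 18.2, ZNF787 at 11.1, ZNF581 at 9.89 and ZNF428 at 8.87 CPM per kb. ZNF146 encodes a protein made almost wholly of fingers, without a KRAB domain.

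The members listed at 0 were concentrated in 2 places. Cluster 4 held 13 of the 25 (ZNF90, ZNF626, ZNF85, ZNF208, ZNF257, ZNF676, ZNF729, ZNF98, ZNF492, ZNF99, ZNF723, ZNF728 and ZNF730) and cluster 9 held 6 (ZNF582, ZNF583, ZNF667, ZNF471, ZNF71 and ZNF835). The others were ZNF560, ZNF568, ZNF285, ZNF534, ZNF665 and ZNF135. In mouse, the relative of ZNF568 represses a placental promoter of Igf2. Counts of 0 allow no statement on a change between the groups.

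The summed level of all members was 1962, 1874 and 1609 CPM in shNSUN2 and 1801, 1822 and 1895 CPM in FaDu. The means were 1815 ± 184 and 1840 ± 49.5 CPM (SD, n = 3 each), a difference smaller than the spread between the shNSUN2 libraries. Without replicate 3 the shNSUN2 mean was 1918 CPM. In bulk RNA, fewer cells that express a gene and less RNA per cell cannot be told apart.

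Few members changed. At an adjusted p under 0.05 (edgeR quasi-likelihood with Benjamini-Hochberg adjustment over 19081 genes), 6 members rose and 6 fell in shNSUN2, or 12 of 197 (6.09%), while 18.5% of all genes tested were called, 8.54% as higher and 9.97% as lower. The median log2 fold change of the members was -0.07 (interquartile range -0.32 to 0.23) and that of all genes -0.01 (-0.47 to 0.35). A change within 0.5 in either direction was seen for 151 members (76.6%), against 59.5% of all genes. An unadjusted p under 0.05 was reached by 29 members (14.7%), against 33.7% of all genes. The median SE of the log2 fold change was 0.26 for members and 0.22 for all genes.

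Most of the larger fold changes did not pass the test. At least 2-fold was reached by 15 members (7.61%), against 16.1% of all genes, and 10 of the 15 were not called. These 10 were ZNF497, ZNF132, ZNF433, ZNF320, ZNF224, ZNF490, ZNF175, ZNF66, ZNF264 and ZNF551, of which 3 had means under 1 CPM in both groups. The lowest value, -3.24 for ZNF497, rested on 0.266, 0 and 0.415 CPM in shNSUN2 and 3.12, 0.661 and 2.77 CPM in FaDu (adjusted p = 0.0722). The highest, 2.21 for ZNF551, rested on 24.5, 3.32 and 3.20 CPM in shNSUN2 and 2.14, 2.73 and 1.82 CPM in FaDu (adjusted p = 0.132). ZNF551 was high in replicate 1 of shNSUN2 and level in the other libraries.

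The count of calls depended on the libraries entered. Without replicate 3 of shNSUN2, 198 members were tested, 11 rose and 4 fell (7.58%, against 21.5% of all genes), and the median turned to 0.08, against -0.02 for all genes. Without replicate 1 of shNSUN2, 4 rose and 0 fell, with 10.4% of all genes called, and without replicate 2, 3 rose and 7 fell, with 17.4% of all genes called. Leaving out FaDu replicate 1, 2 or 3 left 2 higher members each time, with 0, 0 and 1 lower, while the share of all genes called also fell, to 7.9%, 6.76% and 6.88%. With all 6 libraries and a correction for GC content and length, 11 rose and 4 fell (7.61%, against 27.8% of all genes). That correction moved the median of all genes to 0.11 and that of the members to 0.06.

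Of the 12 calls with all libraries, 7 were also made without replicate 3 (ZNF576, ZNF787, ZNF865, ZNF480, ZNF460, ZNF562 and ZNF699). ZNF576 was the only member called in all 6 fits that left out 1 library, and ZNF787 was called in 5 of them.

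**Figure D2:**
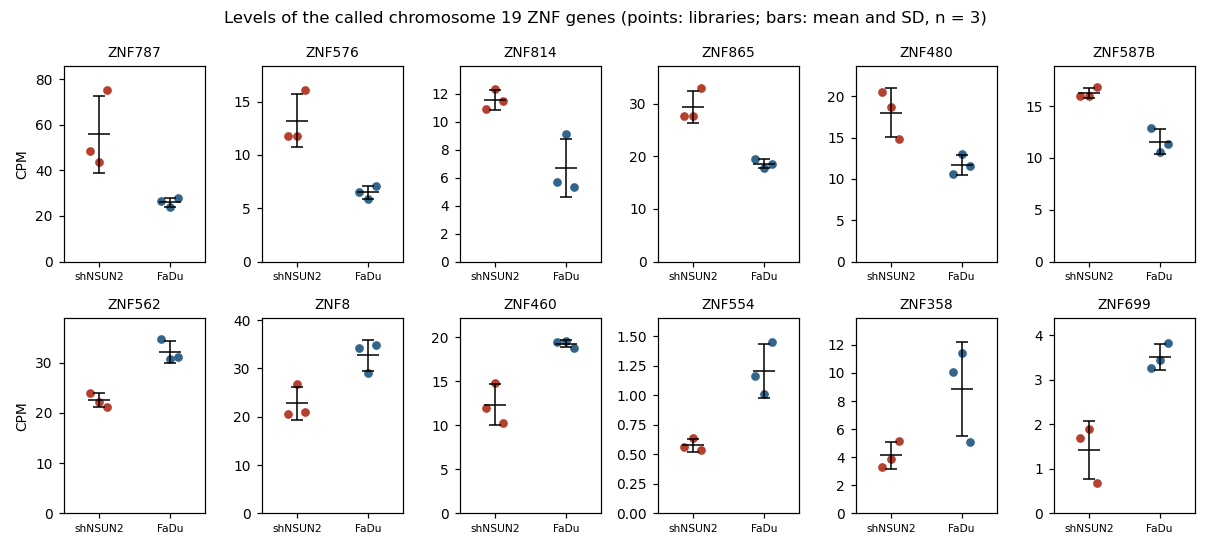
Level in CPM of the 12 called members in each library (shNSUN2 left, FaDu right; points are libraries, bars the mean and SD of 3). The groups overlap only for ZNF358, and the higher genes of the upper row include ZNF787 with its highest level in replicate 3 of shNSUN2.

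Among the members that rose, ZNF787 and ZNF576 changed most, and neither has a match to the KRAB motif. ZNF787 (chromosome 19, 56087366 to 56121280, minus strand, 7 finger motifs) was at 48.6, 43.7 and 75.2 CPM in shNSUN2 and at 26.4, 23.7 and 27.8 CPM in FaDu. Its means were 55.8 ± 17.0 and 25.98 ± 2.09 CPM (SD, n = 3 each), a log2 fold change of 1.103 (SE 0.21, edgeR adjusted p = 0.0122). Every shNSUN2 library lay above every FaDu library, and the change was 0.83 without replicate 3 (adjusted p = 0.00437). The call was lost without FaDu replicate 2.

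ZNF576 (43596392 to 43601157, plus strand) encodes a short protein with 4 finger motifs. It was at 11.7, 11.8 and 16.1 CPM in shNSUN2 and at 6.51, 5.89 and 7.07 CPM in FaDu, a log2 fold change of 1.03 (SE 0.18, edgeR adjusted p = 0.00904). The groups did not overlap, and without replicate 3 the change was 0.86 (adjusted p = 0.00881).

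ZNF865 (55605405 to 55617269, plus strand), with 20 finger motifs and no KRAB match, was at 27.7, 27.6 and 33.0 CPM in shNSUN2 and at 19.6, 17.8 and 18.5 CPM in FaDu. It rose by 0.66 on the log2 scale (SE 0.13, edgeR adjusted p = 0.0143) and by 0.57 without replicate 3 (adjusted p = 0.0112), and the call was lost when any of the FaDu libraries was left out. ZNF480 (52297177 to 52325922, plus strand) was at 20.6, 18.7 and 14.8 CPM in shNSUN2 and at 10.6, 13.0 and 11.6 CPM in FaDu. It rose by 0.62 (SE 0.17, edgeR adjusted p = 0.041) and by 0.75 without replicate 3 (adjusted p = 0.0119), the only fit that left out a library and kept its call.

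The remaining higher calls were neighbours in cluster 10 that share sequence. ZNF814 (57848731 to 57889074, minus strand) was at 10.9, 12.3 and 11.5 CPM in shNSUN2 and at 5.71, 9.12 and 5.34 CPM in FaDu (log2 fold change 0.78, SE 0.23, edgeR adjusted p = 0.0468). ZNF587B (57819741 to 57846238, plus strand) was at 16.0, 16.0 and 16.8 CPM in shNSUN2 and at 12.9, 10.5 and 11.3 CPM in FaDu (0.49, SE 0.14, edgeR adjusted p = 0.0474). Of the 50-base stretches of their transcripts, 27.0% for ZNF814 and 20.5% for ZNF587B also occur in transcripts of other chromosome 19 genes. Reads could therefore have been split between copies. Genes of other chromosomes were not searched for these or later shares, which may be too low. Without replicate 3 their adjusted p was 0.0667 and 0.0518. Of the 6 fits that left out a library, ZNF814 was called only without FaDu replicate 2 and ZNF587B in none.

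Of the 6 members that fell, 5 have the KRAB motif, as do 135 of the 197 tested members. ZNF699, the human relative of the fly gene hangover, which acts in ethanol tolerance in Drosophila, was at 1.70, 1.90 and 0.681 CPM in shNSUN2 and at 3.27, 3.43 and 3.82 CPM in FaDu. The largest fall among the calls was its log2 fold change of -1.30 (SE 0.37, edgeR adjusted p = 0.0452), which was -0.96 without replicate 3 (adjusted p = 0.0221). ZNF460 was at 11.9, 14.8 and 10.2 CPM in shNSUN2 and at 19.4, 19.5 and 18.8 CPM in FaDu, with a log2 fold change of -0.64 (SE 0.17, edgeR adjusted p = 0.0339). It was -0.52 without replicate 3 (adjusted p = 0.0366). Both genes were also called without replicate 2 of shNSUN2, and lost the call without replicate 1 or any of the FaDu libraries.

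ZNF562 was at 24.02, 22.2 and 21.3 CPM in shNSUN2 and at 34.6, 30.7 and 31.1 CPM in FaDu, and fell by 0.52 on the log2 scale (SE 0.12, edgeR adjusted p = 0.0262). It was called without replicate 3 (adjusted p = 0.024) but in none of the other fits that left out a library, nor with the GC correction (adjusted p = 0.166). ZNF8 was at 20.5, 26.7 and 21.1 CPM in shNSUN2 and at 34.2, 29.1 and 34.8 CPM in FaDu (-0.52, SE 0.15, edgeR adjusted p = 0.0494), and ZNF554 at 0.562, 0.640 and 0.533 CPM in shNSUN2 and at 1.16, 1.01 and 1.46 CPM in FaDu (-1.06, SE 0.31, edgeR adjusted p = 0.0468). Both have groups that did not overlap, but ZNF8 was called only without replicate 2 of shNSUN2 and ZNF554 in none of the 6 fits that left out a library. ZNF8 also missed the threshold with the GC correction (-0.36, adjusted p = 0.0908) and under RLE scaling (adjusted p = 0.0521), and ZNF554 with DESeq2 (adjusted p = 0.0928) and with no filter (adjusted p = 0.0751). Of the 50-base stretches of ZNF562, 22.4% also occur in other chromosome 19 genes, an overlapping antisense gene among them. For ZNF8 the share is 21.0%, with a read-through gene among them.

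ZNF358, the lower member without a KRAB match, lies outside the naming rule because its groups overlap, and it is named after its values were seen. It was at 3.33, 3.91 and 5.18 CPM in shNSUN2 and at 10.1, 11.4 and 5.06 CPM in FaDu (log2 fold change -1.09, SE 0.32, edgeR adjusted p = 0.0497). FaDu replicate 3 was as low as the shNSUN2 libraries, and without that library alone, of the 6, was ZNF358 called.

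Without replicate 3 of shNSUN2, 7 further members passed the test as higher, namely ZNF146, ZNF28, ZNF383, ZNF440, ZNF724, ZNF823 and ZNF888, and ZNF490 passed as lower. ZNF146, the most abundant member, was at 128, 104 and 63.0 CPM in shNSUN2 and at 77.8, 89.5 and 88.4 CPM in FaDu. Replicates 1 and 2 of shNSUN2 lay above all FaDu libraries and replicate 3 below them. With all libraries its log2 fold change of 0.20 (SE 0.24) missed the threshold (edgeR adjusted p = 0.595), and it was 0.45 without replicate 3 (adjusted p = 0.0386) and -0.03 without replicate 1. ZNF383 had 0.66 with all libraries and 0.99 without replicate 3 (adjusted p = 0.0337), ZNF823 had 0.52 and 0.74 (adjusted p = 0.0497), and ZNF888 had 0.37 and 0.65 (adjusted p = 0.0183). ZNF490 had -1.14 and -1.89 (adjusted p = 0.0231), with 70.9% of its 50-base stretches shared with other genes of chromosome 19.

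Of the other abundant members, ZNF114, ZNF121 and ZNF274 passed the test neither with all libraries nor without replicate 3. ZNF114 was at 50.1, 27.5 and 48.8 CPM in shNSUN2 and at 61.5, 51.2 and 87.7 CPM in FaDu (log2 fold change -0.66, SE 0.28, edgeR adjusted p = 0.135). ZNF121 was at 46.5, 41.8 and 22.3 CPM in shNSUN2 and at 45.9, 44.8 and 54.5 CPM in FaDu (-0.39, SE 0.26, edgeR adjusted p = 0.329), and only replicate 3 of shNSUN2 lay far from the FaDu levels. ZNF274, a KRAB protein that binds the coding ends of other ZNF genes and recruits SETDB1 there, was at 39.5, 35.8 and 38.9 CPM in shNSUN2 and at 44.0, 42.5 and 48.1 CPM in FaDu. Its groups did not overlap, yet the change of -0.24 (SE 0.12) missed the threshold (edgeR adjusted p = 0.199).

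Some members with known roles, named for those roles, also missed it. ZNF91, which represses SVA retrotransposons, was at 29.6, 4.97 and 12.9 CPM in shNSUN2 and at 17.2, 20.8 and 24.3 CPM in FaDu (log2 fold change -0.39, SE 0.58, edgeR adjusted p = 0.686). ZNF350, a partner of BRCA1 also called ZBRK1, was at 6.99, 6.95 and 4.34 CPM in shNSUN2 and at 5.53, 7.98 and 7.17 CPM in FaDu (-0.18, SE 0.24, edgeR adjusted p = 0.652). ZNF420, a KRAB protein that restrains p53-driven apoptosis, was at 4.02, 2.47 and 2.06 CPM in shNSUN2 and at 1.88, 4.02 and 3.23 CPM in FaDu (-0.09, SE 0.35, edgeR adjusted p = 0.882). The shNSUN2 libraries of ZNF91 reached both above and below all its FaDu libraries, and the groups of all 3 genes overlapped.

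Along the chromosome, cluster 9 had the highest median and cluster 1 the lowest. With all libraries, the median log2 fold change was -0.31 in cluster 1 (5 tested), -0.19 in cluster 2 (12), -0.11 in cluster 3 (19), 0.04 in cluster 4 (21), -0.02 in cluster 5 (5), -0.09 in cluster 6 (24), -0.09 in cluster 7 (20), -0.08 in cluster 8 (30), 0.58 in cluster 9 (9) and -0.07 in cluster 10 (40). Cluster 1 had -0.02 without replicate 3. Outside cluster 9 the median of 188 members was -0.08, and without replicate 3 it was 0.07. Without replicate 3 the cluster medians lay between -0.04 (cluster 2) and 0.14 (cluster 4), again apart from cluster 9 at 0.40. With the GC and length correction cluster 4 had 0.21 and cluster 9 had 0.62, against 0.11 for all genes tested.

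**Figure D3:**
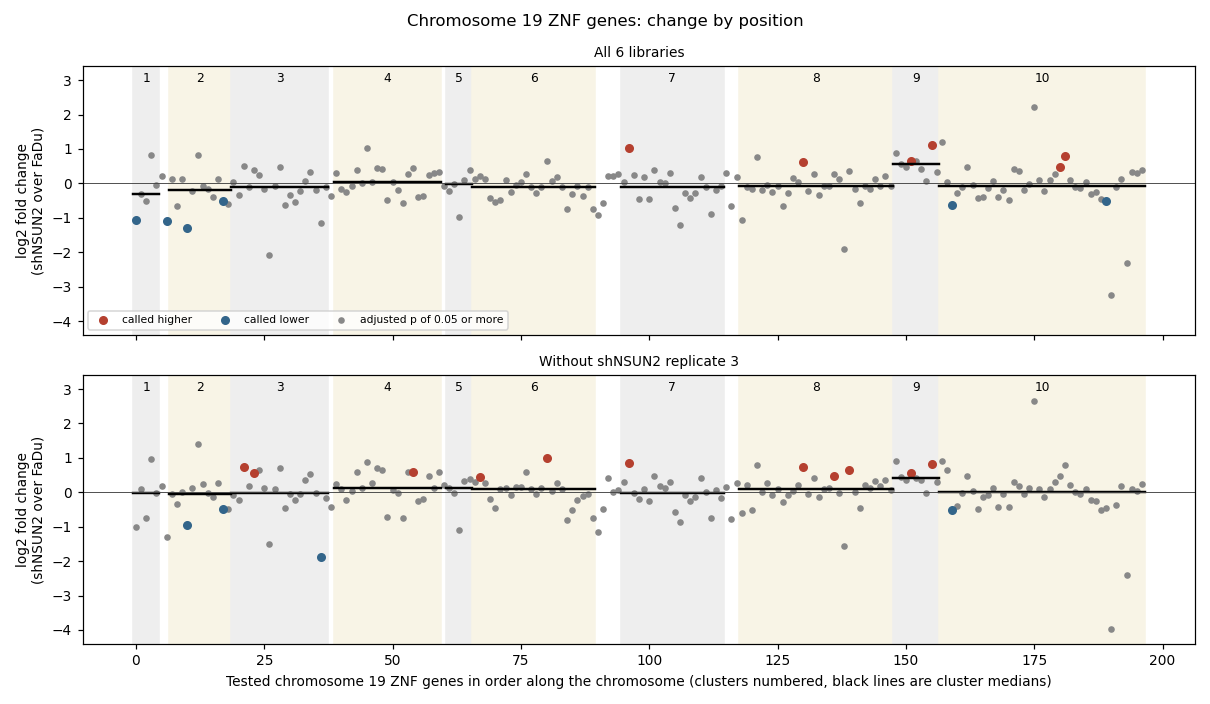
Log2 fold change (shNSUN2 over FaDu) of each tested member in its order along chromosome 19, with all 6 libraries (top) and without replicate 3 of shNSUN2 (bottom); shaded bands are the 10 numbered clusters, black lines their medians and coloured points the called members. Cluster 9 has the highest median in both panels, 0.58 and 0.40, and cluster 1, lowest at -0.31 in the top panel, lies at -0.02 in the bottom panel.

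Within the clusters calls were few. Clusters 3, 4, 5 and 6, with 19, 21, 5 and 24 tested members, held none with all libraries, and the smallest p in each belonged to ZNF44 (log2 fold change -0.61, SE 0.21, edgeR adjusted p = 0.0787), ZNF724 (0.46, SE 0.20, edgeR adjusted p = 0.15), ZNF599 (-0.96, SE 0.29, edgeR adjusted p = 0.0548) and ZNF573 (-0.74, SE 0.24, edgeR adjusted p = 0.069). ZNF573 was at 0.990, 0.960 and 1.02 CPM in shNSUN2 and at 1.62, 1.56 and 1.79 CPM in FaDu, so its groups were apart and its level was low. Clusters 1 and 2 held the lower calls ZNF554, ZNF562 and ZNF699, cluster 7 held ZNF576, cluster 8 held ZNF480 and cluster 10 held 2 of each direction (ZNF814 and ZNF587B higher, ZNF460 and ZNF8 lower).

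Replicate 3 of shNSUN2 had the lowest median deviation of the 6 libraries in clusters 2 to 8 and in cluster 10, from -0.66 in cluster 2 to -0.08 in cluster 10. In cluster 1 the lowest was replicate 2 of shNSUN2 at -0.24. In cluster 9 the order was reversed, and replicate 3 had the highest median, 0.46.

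**Figure D4:**
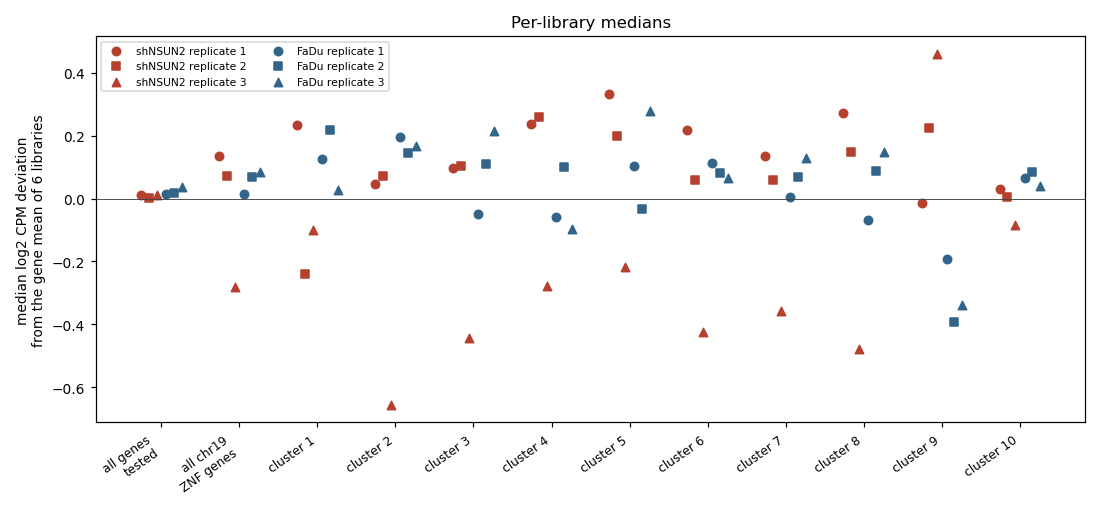
Median over tested genes of the log2 CPM deviation from each gene's mean of 6 libraries, for all genes tested, all tested members and each cluster (red, shNSUN2; blue, FaDu; symbols are replicates 1 to 3). Replicate 3 of shNSUN2 (red triangle) lies lowest for the members as a whole (-0.28) and highest in cluster 9 (0.46).

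Cluster 9 (ZNF628 to ZNF835, 55476332 to 56671783) differed from the others in make-up. Its tested members had a median GC content of 64.9%, against 37.5% in cluster 4, and none of the 9 has a match to either KRAB motif. The cluster fell into 2 parts by level. The 9 genes from ZNF628 to ZNF444 were all tested, and the 7 genes from ZNF582 to ZNF835 were not: 6 were at 0 in all libraries and ZNF470 had only 0.101 CPM in replicate 2 of shNSUN2. ZNF582 is known for promoter methylation in cervical and oral carcinoma. The transcripts of the tested genes had 57.8% to 71.1% GC and those of the untested 38.3% to 57.8%.

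The 9 tested genes all had a positive log2 fold change, as did 9469 of the 19081 genes tested. ZNF787 and ZNF865 were called, 2 of the 9 (22.2%, against 18.5% of all genes tested). ZNF628 was at 1.24, 3.33 and 2.15 CPM in shNSUN2 and at 1.23, 1.23 and 1.18 CPM in FaDu (0.89, SE 0.36, edgeR adjusted p = 0.129). ZNF784 was at 4.36, 5.18 and 7.32 CPM in shNSUN2 and at 4.30, 3.28 and 3.26 CPM in FaDu (0.64, edgeR adjusted p = 0.109). ZNF579 was at 17.8, 14.1 and 20.7 CPM in shNSUN2 and at 12.3, 8.02 and 14.9 CPM in FaDu (0.58, edgeR adjusted p = 0.148). ZNF628 and ZNF784 had all shNSUN2 libraries above the FaDu libraries, by a small margin in replicate 1, and those of ZNF579 overlapped. ZNF524 had 0.47 and ZNF580 0.42. ZNF444, which carries a SCAN domain, was at 15.3, 18.5 and 18.7 CPM in shNSUN2 and at 15.04, 14.2 and 12.3 CPM in FaDu (0.34, edgeR adjusted p = 0.16). ZNF581 was at 15.7, 17.6 and 19.2 CPM in shNSUN2 and at 17.0, 15.5 and 17.996 CPM in FaDu (0.06, edgeR adjusted p = 0.823), and its groups overlapped throughout.

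**Figure D5:**
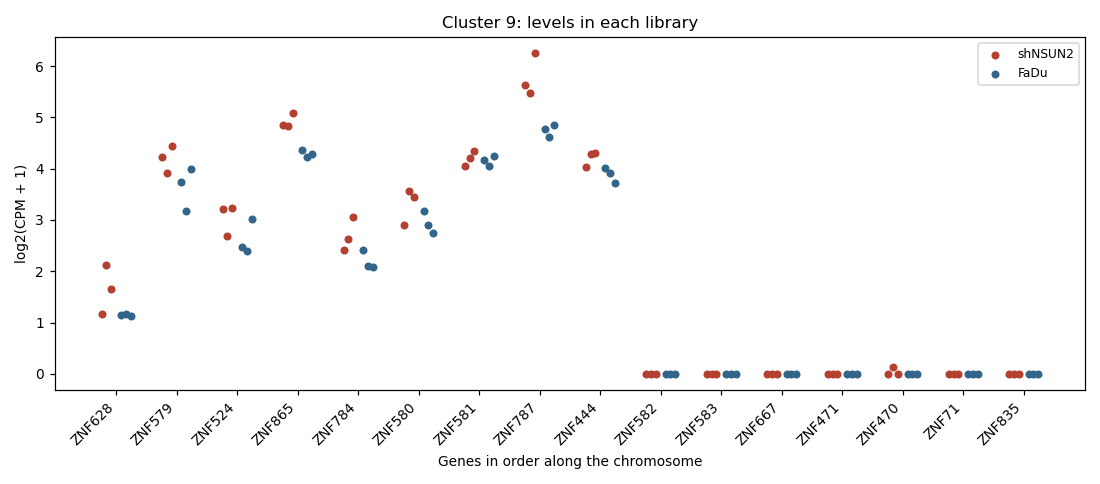
Level of the 16 genes of cluster 9, as log2(CPM + 1), in each library (red, shNSUN2; blue, FaDu), in order along the chromosome. The 9 genes from ZNF628 to ZNF444 are expressed, with ZNF865 and ZNF787 separated between the groups, and the 7 from ZNF582 to ZNF835 lie at or near 0 in all libraries.

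Summed over the cluster, the level was 145, 146 and 195 CPM in shNSUN2 and 108, 94.6 and 109 CPM in FaDu, with means of 162 ± 28.1 and 104 ± 8.12 CPM (SD, n = 3 each). All shNSUN2 libraries were above all FaDu libraries. Without replicate 3 of shNSUN2, 8 of the 9 genes kept a positive log2 fold change, and ZNF581 had -0.01. The grouping mattered: with gaps of 250 kb the highest cluster median was 0.72 over 2 tested genes (ZNF787 to ZNF835), and with gaps of 1000 kb clusters 9 and 10 merged and the highest median was 0.06 over 49. Of the other protein-coding genes within the span of cluster 9, 8 were tested, with a median of 0.26. Of these, 2 rose and 0 fell (25%, against 18.5% of all genes tested).

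The 16 tested members above 60% GC had a median log2 fold change of 0.29, 0.22 without replicate 3, and 13 of them were above 0, while the 181 others had -0.08. Of the 16, 2 rose and 1 fell, while 18.5% of all genes tested were called. The set shares genes with cluster 9, whose tested genes had 57.8% to 71.1% GC, so it is not a separate observation. Across all tested members the Spearman correlation of the log2 fold change with GC content was 0.13, and -0.03 without replicate 3, as a description over genes of shared libraries. With the number of finger motifs it was -0.15 and with exonic length -0.21.

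Promoters are shown for ZNF865, ZNF787 and ZNF582 of cluster 9, and for 1 gene that fell. ZNF444, the last tested gene before the untested part of that cluster, is not among them. The 250 bases before the RefSeq start (GRCh38.p14) were taken, which matched 216 of the 247 members. RefSeq starts can differ from the GENCODE starts used for gene positions, and for ZNF865 the RefSeq start lies inside the gene as GENCODE gives it, so nearly all of its stretch does too. Capitals mark CTTCCGG on either strand (CCGGAAG in reverse), a core of ETS family binding motifs. ZNF865 and ZNF787 rose, ZNF582 was at 0 in all libraries, and ZNF562 fell.
ZNF865: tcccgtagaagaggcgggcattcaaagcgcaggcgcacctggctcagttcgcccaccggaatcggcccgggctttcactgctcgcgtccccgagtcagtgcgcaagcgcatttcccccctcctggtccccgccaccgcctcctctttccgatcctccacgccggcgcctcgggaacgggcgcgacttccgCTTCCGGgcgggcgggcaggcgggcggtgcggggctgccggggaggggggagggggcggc
ZNF787: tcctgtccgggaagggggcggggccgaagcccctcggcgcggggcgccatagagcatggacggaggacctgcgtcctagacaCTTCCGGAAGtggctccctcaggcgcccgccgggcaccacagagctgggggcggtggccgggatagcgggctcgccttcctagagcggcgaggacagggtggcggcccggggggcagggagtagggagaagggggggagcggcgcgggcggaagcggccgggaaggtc
ZNF582: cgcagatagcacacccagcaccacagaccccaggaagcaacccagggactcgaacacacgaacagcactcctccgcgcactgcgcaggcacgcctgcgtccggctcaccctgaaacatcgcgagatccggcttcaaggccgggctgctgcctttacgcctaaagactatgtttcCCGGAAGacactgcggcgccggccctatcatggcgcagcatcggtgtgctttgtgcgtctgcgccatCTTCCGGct
ZNF562: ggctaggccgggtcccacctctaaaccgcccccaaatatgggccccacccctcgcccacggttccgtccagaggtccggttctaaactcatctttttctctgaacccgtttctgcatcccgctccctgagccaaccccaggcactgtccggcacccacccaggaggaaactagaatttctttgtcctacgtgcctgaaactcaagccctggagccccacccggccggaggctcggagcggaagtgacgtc
They lie at chr19:55605397-55605646 (plus strand, ZNF865), chr19:56121296-56121545 (minus strand, ZNF787), chr19:56393535-56393784 (minus strand, ZNF582) and chr19:9675101-9675350 (minus strand, ZNF562). The promoters of ZNF865 and ZNF787 have 73.6% and 74.8% GC with 32 and 27 CpG sites, that of the undetected ZNF582 has 62.8% and 23, and that of ZNF562 has 61.6% and 15. ZNF787 has the motif on both strands in an overlapping pair, ZNF582 has it at 2 places, ZNF865 at 1 and ZNF562 at none.

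Over the family, CTTCCGG on either strand was in 28.4% of 268 member promoters, against 8.52% of all 35116 promoters of the same length. The member promoters came from 216 genes and all promoters from 27305. The sets were not matched for CpG sites, with a median of 16 for members and 11 for all. GGGCGG on either strand (CCGCCC in reverse), the core of motifs bound by SP factors, was in 61.6% of member promoters and 42.6% of all. In cluster 9, the tested genes had 10 promoters from 8 genes and the untested genes 7 promoters from 6 genes. Of these, 4 of 10 and 1 of 7 held CTTCCGG, and 9 of 10 and 4 of 7 held GGGCGG. These are matches of letters and not measured binding.

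Members with and without the KRAB motif are given as counts, with no test of their difference. With the motif, 135 members were tested, and 2 rose and 5 fell (5.19%, against 18.5% of all genes), with a median log2 fold change of -0.09. Without the motif, 62 were tested, and 4 rose and 1 fell (8.06%), with a median of 0.04. Leaving out replicate 3 of shNSUN2 turned the direction of the calls among members with the motif only, and the order of the 2 medians. Members with the motif then had 6 higher and 3 lower (6.62%, against 21.5% of all genes) and a median of 0.089, and those without it had 5 higher and 1 lower (9.68%) and a median of 0.053. With the looser motif, chosen after the strict one was seen to pass over known KRAB genes of cluster 7, the medians of members with and without it were -0.09 over 157 and 0.09 over 40, and both were 0.08 without replicate 3.

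A list of 23 genes, called cofactors here, held TRIM28 and SETDB1 beside more general chromatin regulators. All were tested, and 4 rose and 0 fell. With all libraries that share of 17.4% is close to the 18.5% of all genes called, and the median log2 fold change was 0.25 against -0.01 for all genes. TRIM28, the scaffold bound by the KRAB domain, was at 148, 141 and 207 CPM in shNSUN2 and at 96.2, 87.1 and 96.0 CPM in FaDu (0.83, SE 0.16, edgeR adjusted p = 0.0138). It was 0.64 without replicate 3 (adjusted p = 0.00422). UHRF1, which reads hemimethylated DNA and recruits DNMT1, averaged 189 ± 37.99 CPM in shNSUN2 and 84.0 ± 6.19 CPM in FaDu (SD, n = 3 each) and rose by 1.17 (SE 0.16, edgeR adjusted p = 0.00354). The maintenance DNA methyltransferase DNMT1 rose by 0.59 (SE 0.13, edgeR adjusted p = 0.02), as did the histone methyltransferase EHMT2 (0.59, SE 0.16, edgeR adjusted p = 0.0344). SETDB1 was at 55.1, 61.4 and 60.6 CPM in shNSUN2 and at 53.0, 54.4 and 49.97 CPM in FaDu, groups that did not overlap, with a change of 0.17 that missed the threshold (SE 0.11, edgeR adjusted p = 0.338). Without replicate 3 of shNSUN2, 10 of the 23 were called, all as higher (43.5%, against 21.5% of all genes). With the GC and length correction 13 were higher (56.5%, against 27.8%). Without replicate 2 of shNSUN2 6 were higher (26.1%, against 17.4%), and without replicate 1 2 were (8.7%, against 10.4%). Leaving out FaDu replicate 1, 2 or 3 left 1 higher each time (4.35%, against 7.9%, 6.76% and 6.88%). TRIM28, DNMT1 and EHMT2 lost their calls when any of the FaDu libraries was left out. TRIM28, DNMT1 and UHRF1 themselves lie on chromosome 19.

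The members' 12 calls of 197 (6.09%) stood beside those of related genes measured the same way, and the differences between these groups were not tested. Of all genes tested, 18.5% were called, with a median of -0.01. ZNF genes on other chromosomes had 16 higher and 14 lower of 231 tested (13.0%), with a median of -0.02. Their median deviation in replicate 3 of shNSUN2 was -0.16, the lowest of their 6 libraries as for the members. The other protein-coding genes of chromosome 19 had 119 higher and 57 lower of 802 (21.95%), with a median of 0.21, and 0.09 without replicate 3, whose own median deviation there was 0.34. Those counts fell to 31 to 74 higher and 25 to 36 lower without replicate 1 of shNSUN2 or without FaDu replicate 1, 2 or 3. The counts for ZNF genes elsewhere fell to 2 to 4 higher and 3 to 7 lower without the same 4 libraries. The share of all genes called fell as well, to 10.4% without replicate 1 of shNSUN2. Without FaDu replicate 1, 2 or 3 it was 7.9%, 6.76% and 6.88%.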

How the data were processed

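RNA was sequenced from 3 shNSUN2 and 3 FaDu libraries. The values are estimated counts per gene, deposited by the authors as 1 table of whole numbers and used as they stand. HISAT2 2.0, StringTie 1.3.0 and Bowtie 0.12.2 are named in the submitters' processing notes, without roles. The only build they name is mm8, of mouse, although the identifiers are human. No human build, annotation or strand setting is given in the sources used here. Low values came in steps larger than 1, so no counting interval is given. Reads of near-identical copies and of overlapping genes could have been split or shared.

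Names came from a table of gene names, which held 41967 of the 58825 identifiers, and from GENCODE 29, which held 58552 and gave positions. Tests used edgeR 4.0.16 in R 4.3.3 (TMM scaling, filterByExpr with minimum count 10 and minimum total 15, robust quasi-likelihood, group only, two-sided). CPM are TMM-scaled. Calls are adjusted over all 19081 genes tested. Nothing says that replicates were separate cultures, so p-values measure a spread that may be technical only. Members, lists and clusters were chosen with earlier results of these data known, so lists carry no test of their own. The named members were the called ones with no overlap and at least 1 CPM in the higher group (up to 10 each way), the 5 most abundant, and the smallest p of each cluster, with others marked in the text. Alternatives were DESeq2 1.42.0, RLE scaling, other filters, leaving out each library, a replicate block, and GC and length offsets (splines, 5 degrees of freedom). The procedure was tested on simulated data.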

Additional observations from a re-analysis of the deposited data

How the results depend on the processing

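Across the settings run, the members' higher count was 6 under RLE scaling, with a minimum mean of 1 CPM and with DESeq2, and 4 with no filter, and the lower count was 4, 8, 6 and 5 under the same settings. Leaving out 1 library at a time gave ranges of 478 to 2090 higher and 861 to 2181 lower for all genes (1629 and 1903 with all libraries), 2 to 11 and 0 to 7 for members (6 and 6), 2 to 20 and 3 to 15 for ZNF genes elsewhere (16 and 14), 31 to 132 and 25 to 85 for other chromosome 19 genes (119 and 57), and 1 to 10 higher cofactors (4). Cluster medians then ranged from -0.40 to -0.016 (cluster 1), -0.31 to -0.0043 (cluster 7), 0.39 to 0.65 (cluster 9) and -0.14 to 0.014 (cluster 10). ZNF146 reversed to -0.029 without replicate 1 of shNSUN2 and passed the test at 0.45 without replicate 3. With GC and length correction the higher counts were 3391 for all genes, 11 for members, 25 for ZNF genes elsewhere, 241 for other chromosome 19 genes and 13 for cofactors, and the cluster 10 median was 0.056. With gaps of 1000 kb the highest cluster median was 0.056. The cause of these shifts was not tested. Low counts and close copies limit what can be seen of many members.

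The series' text speaks of pairs but does not say what a pair shares. The deviations of same-numbered libraries from their group means correlated at -0.04, 0.02 and 0.01, and not every library correlated best with its own number, so the numbers were not taken to pair samples. With the replicate block, 969 of all genes were higher, 4 members were higher (ZNF576, ZNF787, ZNF814 and ZNF865) and 2 lower (ZNF114, at -0.68 with adjusted p = 0.0498, and ZNF497, neither called without it), 4 and 8 ZNF genes elsewhere were higher and lower, and 76 other chromosome 19 genes were higher. All 6 lower calls without the block, and ZNF480 and ZNF587B, missed the threshold with it. With the block and the GC correction together, chosen after seeing the data, 2 members and 8 ZNF genes elsewhere were lower, 10 cofactors were higher and the cluster 10 median was 0.050.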

Other observations

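Some members jumped between libraries of the same group, a pattern noticed in the data. A difference of at least 5-fold between libraries of 1 group, with a level of at least 5 CPM, occurred in 10 tested members (5.08%), against 200 of all genes tested (1.05%). The 10 were ZNF264, ZNF320, ZNF490, ZNF551, ZNF555, ZNF649, ZNF791, ZNF805, ZNF841 and ZNF91. ZNF264 was at 4.36, 32.6 and 31.5 CPM in shNSUN2 and at 2.99, 3.19 and 23.3 CPM in FaDu, so that high and low libraries occurred in both groups. ZNF320 was at 1.95, 11.7 and 2.46 CPM in shNSUN2 and at 28.9, 28.9 and 2.39 CPM in FaDu. Of the 50-base stretches of its transcripts, 99.5% also occur in other genes of chromosome 19, the only chromosome searched. Over all tested members that share was 3.22% at the median, and it exceeded 50% in 14.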
